A study of Mus musculus with 9 samples.

Results

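The miR-30 family of mouse atrial appendages was taken as the 6 precursors mmu-mir-30a, mmu-mir-30b, mmu-mir-30c-1, mmu-mir-30c-2, mmu-mir-30d and mmu-mir-30e, out of 661 miRNA precursors with at least 1 read and 996 small RNA features in all. Members were matched by their exact miRBase precursor name, and genome-matched and unmatched reads of each were added. The choice went by name and not by level, but earlier results of these data were known when it was made. Small RNA of C57BL/6 mice had been profiled by PANDORA-seq, in which RNA is treated with the demethylase AlkB and with T4 polynucleotide kinase before adapters are ligated, so that modified small RNAs are also read. The 9 libraries fell into 3 groups of 3: mice aged 5 months without curcumin (young), mice aged 18 months without curcumin (old), and mice aged 18 months that had received curcumin, a polyphenol of turmeric, at 100 mg/kg each day in non-fat skim milk from an age of 12 months (curcumin). The labels name no transgene, and do not say whether the groups without curcumin received the milk. The study asked about small RNA in the ageing atrium under curcumin, a setting of atrial fibrillation.

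miR-30 is an abundant miRNA family of heart muscle, expressed from clustered precursor pairs on several chromosomes. Its mature strands from the 5′ arm begin alike, and the seed, bases 2 to 8, is the stretch that pairs with target messages. In heart cells the family is known to repress connective tissue growth factor, a matrix protein of fibrosis, and miR-30a to repress the autophagy gene Beclin 1.

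The mature strands show how close the members are, and therefore which reads could be told apart. Of the 6 precursors, 4 matched an entry by gene symbol in the RefSeq table of GRCm38.p6, those of miR-30a, miR-30c-1, miR-30c-2 and miR-30e. The sequences run 5′ to 3′, with the seed in capitals.
miR-30a-5p: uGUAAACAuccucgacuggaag
miR-30e-5p: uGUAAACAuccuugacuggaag
miR-30c-5p: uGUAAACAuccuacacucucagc
miR-30a-3p: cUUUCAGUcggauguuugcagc
miR-30e-3p: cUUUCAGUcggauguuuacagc
miR-30c-1-3p: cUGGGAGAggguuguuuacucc
miR-30c-2-3p: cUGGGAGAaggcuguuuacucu
The 3 strands of the 5′ arm had the same first 12 bases, and their seed GUAAACA occurred in 4 of the 1679 mature names of the table, the last being miR-384-5p, which is no member. The table had no entry for miR-30b and miR-30d, so this count leaves out their strands. Counted from 1 at the 5′ end, miR-30a-5p and miR-30e-5p differed only by C13U, and miR-30a-3p and miR-30e-3p only by G18A. miR-30c-5p differed from miR-30a-5p by C13A, G14C, G18C, G19U and A20C. The 3′ arms held 2 seeds, UUUCAGU in miR-30a and miR-30e and UGGGAGA in both miR-30c loci, whose 3′ strands differed by G9A, U12C and C22U.

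Both miR-30c precursors give the same strand from the 5′ arm, which is why their hairpins are shown. Capitals mark that shared strand.
miR-30c-1 hairpin: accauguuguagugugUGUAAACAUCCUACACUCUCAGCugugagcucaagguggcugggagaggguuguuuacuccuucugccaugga
miR-30c-2 hairpin: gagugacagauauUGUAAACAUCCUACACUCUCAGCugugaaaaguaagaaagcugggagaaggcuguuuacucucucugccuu
Outside the capitals the hairpins differed, but a read of the capital stretch alone could come from either locus.

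In the mouse genome the 6 precursors form 3 neighbouring pairs (build mm10, GENCODE M21). mmu-mir-30a (chr1:23272269-23272339, + strand, in no annotated host gene) and mmu-mir-30c-2 (chr1:23291701-23291784, + strand, in an exon of the lincRNA Gm27028) are 19361 bases apart. mmu-mir-30e (chr4:120772606-120772697, − strand) and mmu-mir-30c-1 (chr4:120769534-120769622, − strand) are 2983 bases apart, both in an intron of Nfyc, which encodes a subunit of the CCAAT-binding factor NF-Y. mmu-mir-30d (chr15:68341208-68341289, − strand, in an exon of the lincRNA Gm20732) and mmu-mir-30b (chr15:68337415-68337510, − strand, in no annotated host gene) are 3697 bases apart.

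The libraries held 12899427 to 19707803 clean reads, of which 210212 to 918466 (1.23% to 4.66%) were assigned to miRNA precursors. The 3 libraries numbered 1, 1 in each group, stood apart in that 72.2% to 73.7% of their clean reads matched the genome, against 65.0% to 68.3% in the other 6. The main results per clean read are also given without these libraries. Shares of the family, overlap of groups, ratios of neighbours and correlations between members are given with all 9 libraries only. Of the marker lists, muscle and endothelium were the highest. The 9 muscle precursors, chiefly miR-1a, took 307036 to 431033 reads per 1000000 miRNA reads (RPM of miRNA reads) and the endothelial miR-126a 214741 to 281663. Within the muscle list, miR-206, miR-208b and miR-499 averaged only 12.7, 0.463 and 5.66. The 6 neuronal precursors took 27.8 to 121, the liver miR-122 took 21.8 to 190 and the 7 epithelial precursors, chiefly miR-203, took 637 to 1092. The red cell list (4 precursors) summed to 2835 to 6353 RPM of miRNA reads in young, 1222 to 3461 in old and 766 to 1422 in curcumin libraries, the muscle list to 320562 to 385606, 307036 to 360145 and 359067 to 431033, and the leukocyte list (4 precursors) to 2547 to 7908, 2391 to 3461 and 2643 to 3811. The smooth muscle list (miR-143 and miR-145a) took 14454 to 15810 in young, 14146 to 16647 in old and 17538 to 18343 in curcumin libraries, so that every curcumin library lay above all others. Endothelial miR-126a took 220127 to 238274, 247585 to 268484 and 214741 to 281663, with every old library above every young one. In the red cell list every young library lay above every curcumin one. Of the tested miRNAs taken singly, 7.66% had groups that did not overlap in old against young. The share was 19.1% in curcumin against old and 14.4% in curcumin against young. The part of these lists in the results below was not tested. The labels do not say whether the libraries of a group came from separate animals or pools, so p-values measure only the spread between these libraries. In bulk tissue, fewer cells of a type and less RNA per cell cannot be told apart.

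The family gave 9927 to 42516 reads per library and 4.15% to 5.43% of all miRNA reads, with a mean of 4.81%. Among families grouped by miRNA number it ranked 4 by its mean, behind miR-1 with 35.4%, miR-126 with 24.2% and let-7 with 10.1%, and it held rank 4 or 5 in each of the 9 libraries. The highest library exceeded the lowest by 1.31 times. The same ratio was 1.25 for miR-26, 1.31 for miR-126, 1.33 for miR-199, 1.71 for let-7, 1.87 for miR-125 and 2.39 for miR-29. The 95% Wilson interval of the family's share reached at most 1.92% of its value to either side, and up to 7.86% for mmu-mir-30b, the least abundant member. Of the family's 206870 reads over the 9 libraries, 0 failed to match the genome, which allows a share of up to 0.00145% (3 reads), and over all miRNAs 119 of 4310513 reads failed to match.

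Per miRNA read mmu-mir-30a was the most abundant member. It averaged 13234 ± 1377 RPM of miRNA reads (SD over all 9 libraries) and ranked 8 to 14 among miRNAs. mmu-mir-30e followed with 9698 ± 1168, below mmu-mir-30a in 9 of 9 libraries. mmu-mir-30c-2 averaged 7405 ± 1027 and lay below mmu-mir-30e in 9 of 9 libraries, and mmu-mir-30c-1 averaged 7307 ± 1103. These neighbours are not separable: their ratio was 0.991 to 1.04, and the loci differed by at most 102 reads or 1.80% of their sum. mmu-mir-30d averaged 6773 ± 1084, below mmu-mir-30c-1 in 5 of 9 libraries, so that this pair did not differ beyond its spread either. mmu-mir-30b was the least abundant in all 9 libraries, with 3662 ± 617 and rank 34 to 39.

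The deposited values are expected counts, and those of the members were not always whole (tolerance 0.005 reads). Both miR-30c loci had fractions in 7 of 9 libraries, mmu-mir-30b in 6, mmu-mir-30a and mmu-mir-30e in 4 each, and mmu-mir-30d in 0. The miR-30c loci correlated at Pearson r = 0.999 over the 9 libraries on log2 RPM of miRNA reads. They share a mature strand, and are best read as a single miRNA listed under 2 precursors.

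Per clean read, the family was more variable and its group means differed, but no group stood apart. The young libraries 1, 2 and 3 had 2157, 729 and 901 family reads per 1000000 clean reads (RPM of clean reads), the old libraries 1698, 572 and 1062, and the curcumin libraries 1477, 2285 and 1463. Library 1 was the highest of the young and of the old group, and library 2 the highest of the curcumin group, so the ranges of all 3 groups overlapped. The means were 1262 ± 780 in young, 1111 ± 565 in old and 1742 ± 470 in curcumin (SD, n = 3), which gives ratios of 0.880 for old against young, 1.57 for curcumin against old and 1.38 for curcumin against young. Within the replicate numbers 1, 2 and 3, old against young was 0.787, 0.785 and 1.18, and curcumin against young was 0.685, 3.13 and 1.62. Without the 3 libraries numbered 1 the ratio of means became 1.00 for old against young, 2.29 for curcumin against old and 2.30 for curcumin against young. Among the libraries left out, curcumin library 1 (1477) lay below old library 1 (1698) and young library 1 (2157).

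The miRNA share of the library moved with these values. miRNA precursors took 4.66%, 1.34% and 1.88% of the clean reads in young libraries, 3.32%, 1.23% and 2.37% in old and 3.21%, 4.22% and 3.53% in curcumin libraries. Set against miRNA reads, the young libraries had 46290, 54279 and 47812 family RPM of miRNA reads, the old libraries 51157, 46613 and 44875, and the curcumin libraries 46087, 54117 and 41479. All 3 groups overlapped on this scale as well, and library 2 was the highest of the young and of the curcumin group. The means of 49460 ± 4242 in young, 47548 ± 3243 in old and 47228 ± 6396 in curcumin (SD, n = 3) gave ratios of 0.961, 0.993 and 0.955 for the 3 comparisons in the same order. Between curcumin and old, the family was thus at 1.57 times per clean read and at 0.993 times per miRNA read.

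**Figure D1:**
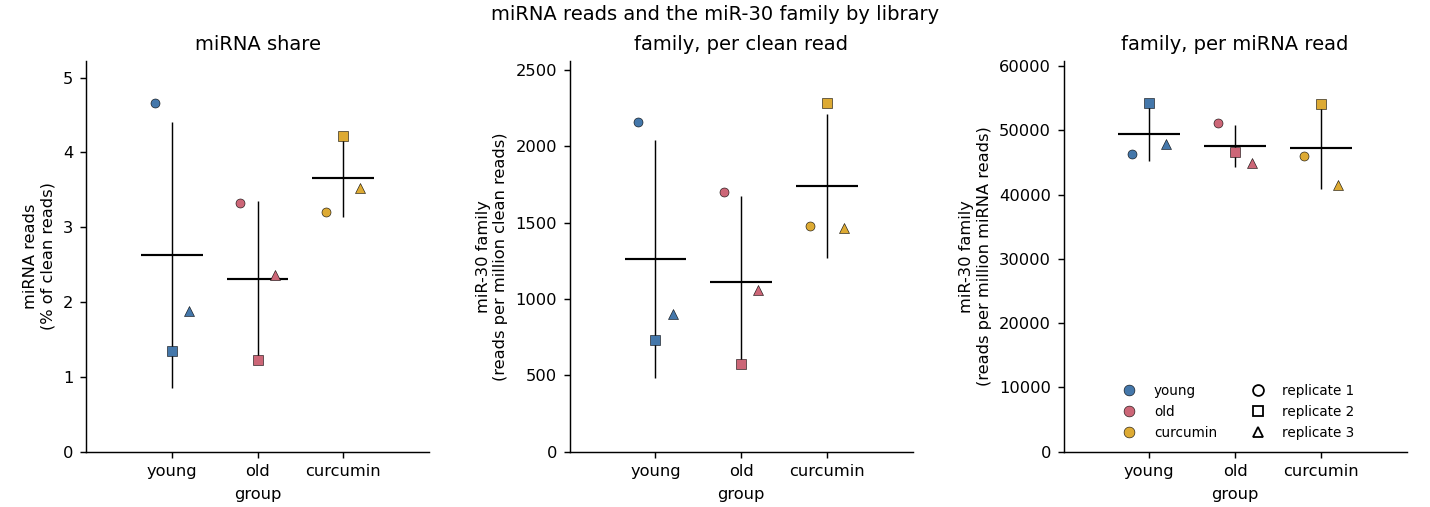
Share of miRNA reads in clean reads (left, %), miR-30 family RPM of clean reads (middle) and RPM of miRNA reads (right) in the 9 libraries by group; points are libraries, horizontal bars group means and vertical lines 1 SD. The left and middle panels have the same ordering within young and old, and in the right panel the group means lie between 47228 and 49460.

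Age was the first comparison, old against young. Of the 6 members, 0 passed an adjusted p of 0.05 in edgeR's quasi-likelihood test on either scale, beside 0 of 520 features (0%) per clean read and 0 of 209 miRNAs (0%) per miRNA read. At an unadjusted p under 0.05 there were 4 features and 2 miRNAs, none a member, and DESeq2 called 0 on both scales. Per clean read the log2 change ranged from -0.42 ± 0.58 (SE) for mmu-mir-30b to 0.08 ± 0.42 for mmu-mir-30d, with 5 of 6 negative (4 of 6 under TMM scaling, where mmu-mir-30a was at 0.04). The members' median was -0.26 against -0.24 over all tested miRNAs, and the edgeR adjusted p was 0.993 for every member. Per miRNA read it ranged from -0.26 ± 0.33 for mmu-mir-30b to 0.10 ± 0.32 for mmu-mir-30d, with a median of -0.10 both in the family and over all tested miRNAs. On this scale the SE and p of the main fit, here and below, rest on a spread estimated over all 520 features, miRNA or not. No member had old and young libraries that did not overlap, per clean read (0 of 6, against 4.04% of features), per miRNA read (0 of 6, against 7.66% of miRNAs) or as a share of the family (0 of 6, against 4.31% of miRNAs on the same denominator).

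Curcumin against old mice of the same age gave the larger log2 values per clean read. All 6 members were positive, with 0.72 ± 0.53 (SE) for mmu-mir-30a, 0.92 ± 0.59 for mmu-mir-30b, 0.53 ± 0.47 for mmu-mir-30c-1, 0.54 ± 0.48 for mmu-mir-30c-2, 0.39 ± 0.42 for mmu-mir-30d and 0.79 ± 0.55 for mmu-mir-30e. Their edgeR adjusted p lay between 0.80 and 0.81. None passed, as among all 520 features (0%), where 20 had an unadjusted p under 0.05 and DESeq2 called 6 features, no member among them. The members' median was 0.63, and that of all 209 tested miRNAs, of which 179 were positive, was 0.46. TMM scaling lowered the members' values to 0.11 to 0.63, with a median of 0.34 against 0.18 over all tested miRNAs. mmu-mir-30b, with the largest of these values, had 125, 35.8 and 69.9 RPM of clean reads in old libraries and 133, 193 and 111 in curcumin libraries. Curcumin library 3 lay below old library 1, and the curcumin and old libraries overlapped for every other member too (0 of 6 not overlapping), while 14.2% of all features had groups that did not overlap. Without the 3 libraries numbered 1 the members' log2 changes were 0.90 to 1.52, with edgeR adjusted p of 0.0555 to 0.116 and 0 of 6 called, beside 12 of 521 features (2.3%), 6 higher and 6 lower.

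Per miRNA read the same comparison was split within the family. The log2 changes were 0.10 ± 0.28 (SE) for mmu-mir-30a, 0.30 ± 0.33 for mmu-mir-30b and 0.12 ± 0.30 for mmu-mir-30e, but -0.16 ± 0.30 for mmu-mir-30c-1, -0.15 ± 0.30 for mmu-mir-30c-2 and -0.29 ± 0.32 for mmu-mir-30d. None passed in edgeR (adjusted p 0.822 to 0.961), as none of the 209 miRNAs did (0%). There were 8 miRNAs at an unadjusted p under 0.05, none a member, and DESeq2 called 0. The median of all tested miRNAs on this scale was -0.24. Under TMM scaling of the miRNA features, which moved that median to 0.02, mmu-mir-30c-1 and mmu-mir-30c-2 turned positive at 0.10 each, so the sign of the miR-30c loci depends on the scaling.

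mmu-mir-30d was the only member whose curcumin and old libraries did not overlap per miRNA read (1 of 6, against 19.1% of the tested miRNAs). It had 7447, 7391 and 7308 RPM of miRNA reads in old libraries, 5463, 6592 and 6088 in curcumin libraries and 4907, 8125 and 7637 in young libraries. The old libraries lay close together, every curcumin library lay below them, and the young libraries spanned both. The curcumin mean was 0.819 times the old mean, and 0.863 times without the libraries numbered 1. The spread of the old libraries (CV 0.949%) was smaller than the counting error of a single value, whose Wilson half-width was 2.82% to 4.92% of the value over the 9 libraries. An exact permutation test of 3 libraries against 3 cannot give a two-sided p under 0.1, so no p is given for such single values. In the edgeR test mmu-mir-30d had an adjusted p of 0.822.

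The other members overlapped between all pairs of groups per miRNA read. mmu-mir-30a had 12487, 13130 and 12627 RPM of miRNA reads in young, 15283, 12089 and 11694 in old and 14535, 15102 and 12157 in curcumin libraries. mmu-mir-30e had 10363, 9985 and 8635 in young, 10253, 9483 and 8170 in old and 9461, 12100 and 8833 in curcumin libraries. In both, library 1 was the highest of the old group and library 2 of the curcumin group. mmu-mir-30b had 4092, 4181 and 3214 in young, 3758, 2913 and 2954 in old and 4147, 4562 and 3137 in curcumin libraries, so that library 3 was the lowest of the young and of the curcumin group. mmu-mir-30c-1 had 7174, 9469 and 7835 in young, 7112, 7343 and 7307 in old and 6165, 7828 and 5531 in curcumin libraries, and mmu-mir-30c-2 followed it with 7268, 9388 and 7864, with 7303, 7395 and 7441, and with 6317, 7933 and 5733. For miR-30c, curcumin libraries 1 and 3 lay below every old and every young library, and curcumin library 2 lay above every old one.

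**Figure D2:**
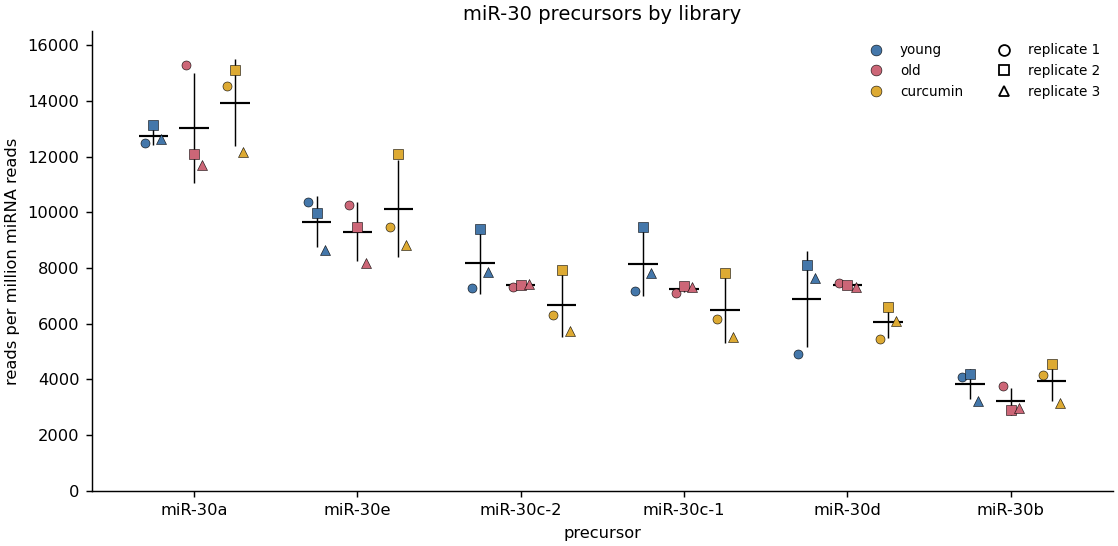
RPM of miRNA reads of the 6 miR-30 precursors in the 9 libraries; points are libraries, horizontal bars group means and vertical lines 1 SD. The old libraries of miR-30d lie between 7308 and 7447, above its curcumin libraries at 5463 to 6592, and the other precursors have overlapping groups.

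Curcumin against young mice differs in both age and treatment, and it shares its libraries with the comparisons above. Per clean read all 6 members were positive, from 0.25 ± 0.47 (SE) for mmu-mir-30c-1 to 0.62 ± 0.53 for mmu-mir-30a, with a median of 0.49 against 0.26 over all tested miRNAs. None passed in edgeR (adjusted p 0.993), as none of 520 features did (0%), with 19 at an unadjusted p under 0.05 and 4 called by DESeq2, no member in either. Per miRNA read the log2 changes ran from -0.33 ± 0.30 for mmu-mir-30c-1 to 0.13 ± 0.28 for mmu-mir-30a, with edgeR adjusted p of 0.704 to 0.961. mmu-mir-30d was at -0.19 ± 0.32 on this scale and at 0.09 under TMM scaling. None of the 209 miRNAs passed (0%), 11 had an unadjusted p under 0.05, no member among them, and DESeq2 called 1 miRNA that was no member. The libraries of the groups overlapped for all members per clean read (0 of 6, against 8.27% of features) and per miRNA read (0 of 6, against 14.4% of miRNAs).

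Without the 3 libraries numbered 1, 1 member passed in this comparison per clean read. mmu-mir-30e then had a log2 change of 1.47 ± 0.33 (SE) with an edgeR adjusted p of 0.0329, among 25 of 521 features called (4.8%), 20 higher and 5 lower. Its RPM of clean reads were 134 and 163 in the young libraries 2 and 3 and 511 and 312 in the curcumin libraries 2 and 3, while the libraries numbered 1 had 483 in young and 303 in curcumin. The young library 1 thus lay above the curcumin library 1, against the direction of the other numbers. Old against young had 0 of 521 features called without these libraries (0%), with 11 at an unadjusted p under 0.05, and members' log2 changes of -0.14 to 0.06.

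**Figure D3:**
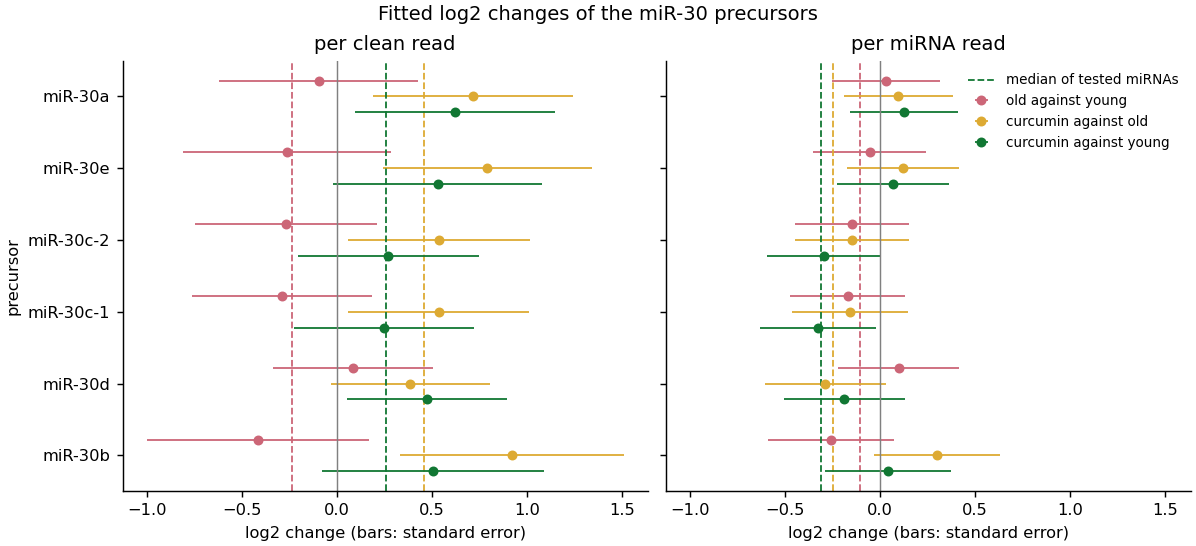
Fitted log2 changes of the 6 precursors in the 3 comparisons per clean read (left) and per miRNA read (right); points are estimates, horizontal lines 1 standard error, and dashed lines the median of all 209 tested miRNAs in the comparison of that colour. Per clean read all members are positive for both comparisons with curcumin, and per miRNA read they lie on both sides of 0.

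For the make-up of the family, each precursor is set against the family's own reads, so the clean or miRNA total of a library is not the denominator. Whether the shares vary with the miRNA share of a library was not tested. The 6 shares add to 100% and so are not independent. Over the 9 libraries mmu-mir-30a took 27.6% ± 2.30 of the family (SD), mmu-mir-30e 20.2% ± 1.68, mmu-mir-30c-2 15.4% ± 1.30, mmu-mir-30c-1 15.2% ± 1.46, mmu-mir-30d 14.1% ± 2.05 and mmu-mir-30b 7.60% ± 0.993. In curcumin against old, 2 of 6 members had groups that did not overlap, against 12.9% of tested miRNAs on the same denominator. mmu-mir-30b took 7.35%, 6.25% and 6.58% in old and 9.0%, 8.43% and 7.56% in curcumin libraries, a mean ratio of 1.24. mmu-mir-30e took 20.0%, 20.3% and 18.2% in old and 20.5%, 22.4% and 21.3% in curcumin libraries, a mean ratio of 1.10. Every curcumin library exceeded every old one for these 2 members, for mmu-mir-30e only narrowly (20.5% against 20.3%). mmu-mir-30d, whose groups overlapped, took 14.6%, 15.9% and 16.3% in old and 11.9%, 12.2% and 14.7% in curcumin libraries.

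Against young libraries, 3 of 6 members had curcumin shares that did not overlap, compared with 11.5% of tested miRNAs, and 2 of these 3 were the miR-30c loci that share reads. mmu-mir-30a took 27.0%, 24.2% and 26.4% of the family in young and 31.5%, 27.9% and 29.3% in curcumin libraries, a mean ratio of 1.14. mmu-mir-30c-1 took 15.5%, 17.4% and 16.4% in young and 13.4%, 14.5% and 13.3% in curcumin libraries, a mean ratio of 0.835. mmu-mir-30c-2 took 15.7%, 17.3% and 16.5% in young and 13.7%, 14.7% and 13.8% in curcumin libraries, a mean ratio of 0.853. For these members every curcumin library lay on one side of every young library, and the old libraries, with 25.9% to 29.9% for mmu-mir-30a and 13.9% to 16.3% for mmu-mir-30c-1, overlapped both groups.

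**Figure D4:**
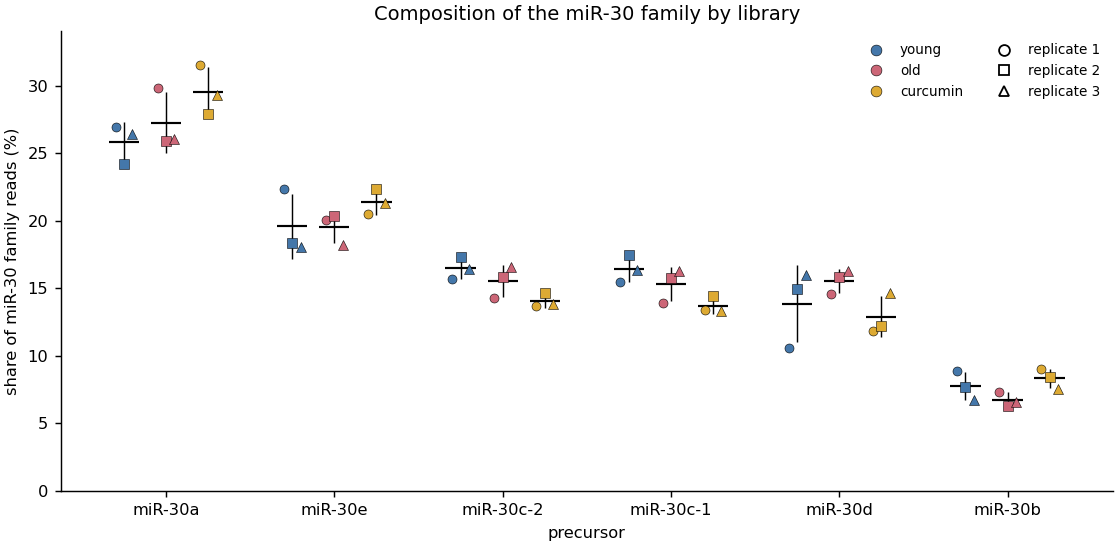
Share of each precursor in the miR-30 family reads of a library (%) in the 9 libraries; points are libraries, horizontal bars group means and vertical lines 1 SD. The curcumin libraries are above all old libraries for miR-30b and miR-30e, above all young libraries for miR-30a and below all young libraries for both miR-30c precursors.

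The reads listed for neighbouring precursors did not keep a fixed ratio. On chromosome 1, mmu-mir-30a to mmu-mir-30c-2 was 1.57 ± 0.162 in young, 1.77 ± 0.284 in old and 2.11 ± 0.199 in curcumin libraries (SD, n = 3), with curcumin at 1.90 to 2.30 and young at 1.40 to 1.72. On chromosome 4, mmu-mir-30e to mmu-mir-30c-1 was 1.2 ± 0.213, 1.28 ± 0.162 and 1.56 ± 0.0333, and the 3 curcumin libraries, at 1.53 to 1.60, lay above all 6 others, which reached 1.44. Reads of the shared 5′ strand of miR-30c cannot be assigned to a locus, and the miR-30c values of these 2 ratios were nearly equal, so the ratios are not independent. Nor do they show how a miR-30c locus itself relates to its neighbour. On chromosome 15, mmu-mir-30d to mmu-mir-30b was 1.84 ± 0.595, 2.33 ± 0.304 and 1.57 ± 0.329, with curcumin reaching 1.94 and old starting at 1.98. The young libraries of that pair, from 1.2 to 2.38, overlapped both other groups. Ratios that do not overlap between groups were common in these libraries. Over all 2016 pairs of the abundant miRNAs (mean of at least 1000 RPM of miRNA reads), 4.27% did not overlap in old against young, 23.4% in curcumin against old and 21.2% in curcumin against young. Of the 3 neighbouring pairs, 0 did not overlap in old against young, 2 in curcumin against old (chromosomes 4 and 15) and 2 in curcumin against young (chromosomes 1 and 4).

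**Figure D5:**
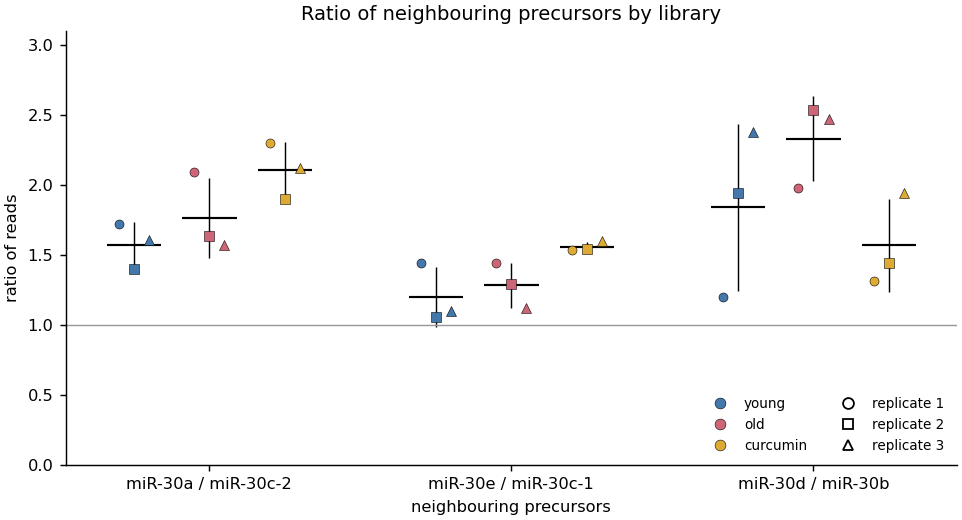
Ratio of reads between the precursors that neighbour each other on chromosomes 1 (left), 4 (middle) and 15 (right) in the 9 libraries; points are libraries, horizontal bars group means, vertical lines 1 SD and the grey line a ratio of 1. The curcumin libraries of miR-30e to miR-30c-1 lie at 1.53 to 1.60, above the other 6.

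Correlations between members ranged widely. Over the 9 libraries, on log2 RPM of miRNA reads, Pearson r was 0.81 between mmu-mir-30b and mmu-mir-30e, 0.74 between mmu-mir-30a and mmu-mir-30b and 0.70 between mmu-mir-30a and mmu-mir-30e. It was 0.08 for the neighbours mmu-mir-30a and mmu-mir-30c-2, 0.29 for mmu-mir-30e and mmu-mir-30c-1 and -0.34 for mmu-mir-30d and mmu-mir-30b. Since both miR-30c loci carry nearly the same values, the first 2 of these do not show how the locus itself relates to its neighbour. mmu-mir-30d and the miR-30c loci correlated at 0.60. These values describe 9 libraries whose precursors share a library and its depth. miR-30a and miR-30e also share nearly all of their mature sequence, as shown above.

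Outside the family, 58 tested miRNAs had a mean of at least 1000 RPM of miRNA reads, and the 5 whose level was most like the family total over the 9 libraries had r of 0.41 to 0.49. mmu-mir-26a-1 had r = 0.49, mmu-mir-26a-2 had 0.48, mmu-let-7g had 0.47, mmu-mir-23b had 0.45 and mmu-mir-99a had 0.41. The order depended on the libraries numbered 1: over the other 6 libraries r was 0.54 and 0.53 for the miR-26a loci, 0.62 for mmu-let-7g, 0.42 for mmu-mir-23b and 0.44 for mmu-mir-99a. The highest values there were those of mmu-mir-223 (0.79, against -0.04 over all 9) and mmu-mir-22 (0.67, against 0.38), which are named after their values were seen. The miR-26a loci share a mature strand, so they count as 1 miRNA. Each value is per library, and the miRNA total is the denominator of both measures.

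Related miRNAs in curcumin against old mice give the setting of these values. Of 16 tested precursors linked with cardiac fibrosis besides miR-30, among them miR-21a and the miR-29 and miR-133a loci, 16 were positive per clean read (15 under TMM scaling), with a median log2 change of 0.63, equal to the family's. Over all tested miRNAs, 179 of 209 were positive on that scale (150 under TMM scaling), with a median of 0.46. The lists here hold several loci of the same miRNA, such as those of miR-29b and miR-133a, so their counts are not of independent miRNAs. Per miRNA read 7 of the 16 were positive (14 under TMM scaling), with a median of -0.02 beside the family's -0.03 and -0.24 over all tested miRNAs, of which 66 of 209 were positive (111 under TMM scaling). The 12 tested let-7 precursors had a median of 0.37 per clean read, where 12 were positive (9 under TMM scaling), and of -0.33 per miRNA read, where 0 were positive (4 under TMM scaling). The 4 miR-29 precursors, which target collagens, were positive on both scales and under TMM scaling, with medians of 0.73 per clean read and 0.16 per miRNA read. The 6 tested muscle precursors had medians of 0.77 and 0.10. No member of these lists (0) passed edgeR's adjusted p of 0.05 in any of the 3 comparisons on either scale.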

How the data were processed

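Total RNA of atrial appendages was treated with AlkB and T4 polynucleotide kinase, size-selected on a gel and ligated with a QIAGEN miRNA kit, per the labels' protocols. Adapter trimming with cutadapt 2.5 and the build mm10 are named per the submitters' processing notes; the aligner, the annotation tool and any use of molecular identifiers were not given in the sources used here. For each library the authors deposited 1 table with expected counts (estimated counts that need not be whole) per annotation, without normalization. Reads of several annotations can enter several class totals, so totals of classes were not used.

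Expected counts were rounded and fitted with edgeR 4.0.16 (R 4.3.3, quasi-likelihood, robust, all 9 libraries, group as the only term, filterByExpr keeping 520 of 996 features, 209 of them miRNAs). Library size was the clean reads, or the miRNA reads with p adjusted over miRNAs (Benjamini-Hochberg, threshold 0.05). The main fit per miRNA read held all 520 features, so its spread and SE also draw on features that are not miRNAs. An edgeR fit limited to the 209 miRNAs, under TMM scaling, called 0 in each comparison. The smallest adjusted p of a member there was 0.965 (old, young), 0.620 (curcumin, old) and 0.634 (curcumin, young). Scripts were tested on simulated data in which every feature had the same spread, the common value over all 520 features. As a fraction, this biological coefficient of variation was 0.493 per clean read and 0.557 per miRNA read. There the edgeR test of old against young called 16.4% of the features given a log2 change of 1 per clean read. Per miRNA read it called 3.70% of the miRNAs given that change. The members' own CV over the 9 libraries was 10.4% (miR-30a) to 16.9% (miR-30b) per miRNA read, below the simulated spread. These shares therefore need not hold for the members. Smaller changes, such as those of the members in the main fits, were not simulated. Single precursors were compared by value and overlap, with 95% Wilson intervals that hold for counting error alone, as amplified reads are not separate molecules. Groups and replicate numbers came from the sample titles. The replicate numbers were checked on deviations from group means over 520 features. Same-numbered libraries correlated at 0.80, 0.63 and 0.29 (old, young), 0.33, 0.21 and 0.28 (curcumin, young) and 0.28, -0.06 and 0.36 (curcumin, old). In the comparisons with young, number 1 against 2 or 3 gave -0.73 to -0.25. Numbers 2 and 3 against each other gave 0.55 and 0.40 (old, young) and 0.22 and 0.22 (curcumin, young), so these 2 were not told apart. In curcumin against old, unlike numbers gave -0.53 to 0.49. Ratios within a number were given in the comparisons with young only, from the data and not from the labels. The same-numbered values of both curcumin comparisons were of similar size, so this choice is weak for curcumin against young. The main fits did not pair libraries. No 2 libraries of a group agreed within sampling noise. Alternatives were TMM and RLE scaling, DESeq2 1.42.0, no filter, 2 groups only, genome-matched reads only, a replicate block, summed loci and leaving out libraries. All 6 members were named, and of other miRNAs the 5 most correlated with the family total (log2 with a pseudocount of 1, mean of at least 1000 reads per 1000000 miRNA reads). Members and lists were chosen with earlier results of these data known. Mature sequences are those of RefSeq (GRCm38.p6), and whether reads came from the 5′ or the 3′ arm was not analysed here.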

Additional observations from a re-analysis of the deposited data

How the results depend on the processing

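Of 828 recomputed results, 780 stayed the same, 40 changed sign, 7 moved and 1 newly passed. A log2 change stayed the same if it kept its sign and its side of the threshold. A count had to stay within 1.5 times, and a ratio of family totals within 1 SD. The direction of these ratios was not checked: old against young per clean read went from 0.880 to 1.00 without the 3 libraries numbered 1. Signs were checked only for log2 changes of members. The 40 sign changes were each on a scale and in a comparison where that member passed in no alternative, and the cause was not tested. Other scalings turned old against young per clean read positive for miR-30a (0.041 with TMM, 0.014 with RLE and 0.014 with DESeq2). Per miRNA read, in curcumin against old, they turned positive miR-30c-1 (0.095, 0.048 and 0.048 in the same order) and miR-30c-2 (0.10, 0.056 and 0.055), and in curcumin against young miR-30d (0.092, 0.090 and 0.091). A denominator without miR-1a and miR-126, which was chosen after seeing the data, gave 0.0043, 0.012 and 0.041 for these last 3 values, and put the family total of curcumin at 1.11 times that of young instead of 0.955.

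Without the 3 libraries numbered 1, old against young became 0.038 for miR-30a and 0.062 for miR-30e per clean read, and -0.12 for miR-30a and -0.10 for miR-30d per miRNA read. Per clean read, 12 features were called for curcumin against old and 25 for curcumin against young, among them miR-30e at 1.47, and the family total was 2.30 times that of young. DESeq2 called 6 and 4 features per clean read in these comparisons and 1 miRNA per miRNA read for curcumin against young, where edgeR called 0.

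Leaving out 1 library at a time, old against young per clean read ranged from -0.64 to 0.59 for miR-30a, -0.96 to 0.40 for miR-30b, -0.63 to 0.28 for miR-30c-1, -0.61 to 0.31 for miR-30c-2, -0.28 to 0.43 for miR-30d and -0.75 to 0.55 for miR-30e, the lowest values without old library 1 and the highest without young library 1. Per miRNA read it ranged from -0.10 to 0.10 for miR-30a, -0.094 to 0.24 for miR-30d and -0.13 to 0.031 for miR-30e. Curcumin against old per clean read kept its sign in every member, from 0.084 (miR-30d) to 0.58 (miR-30b) without old library 2 and from 0.76 (miR-30d) to 1.46 (miR-30b) without old library 1, with members' medians of 0.31 and 1.07. Curcumin against young per clean read ranged from -0.048 to 0.81 for miR-30c-1 and -0.014 to 0.85 for miR-30c-2, and curcumin against old per miRNA read from -0.024 to 0.21 for miR-30e. Curcumin against young per miRNA read ranged from -0.072 to 0.19 for miR-30b and -0.079 to 0.16 for miR-30e.

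With the replicate number as a block, 0 features were called in each of the 3 comparisons on both scales, as without it, and the block changed no call of a member. For curcumin against old, where no ratios within a number were given, the members' log2 changes per clean read were 0.53 to 1.14 with the block (edgeR adjusted p 0.447 to 0.542). Counting error reached at most 7.86% of a member's share, for miR-30b. In the old libraries the CV of miR-30d (0.949%), miR-30c-2 (0.954%) and miR-30c-1 (1.71%) lay below their own Wilson half-widths, which were at least 2.82%, 2.39% and 2.41% of the value in every library.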
